A study of Bos taurus with 9 samples.

Results

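The imprinted growth genes described here are *IGF2*, *IGF2R*, *PEG3*, *PEG10*, *MEST*, *CDKN1C*, *GRB10*, *PLAGL1*, *PHLDA2* and *SNRPN*. They were chosen by name, and all 10 were found by symbol among the 21512 genes of a table of transcript abundance in single bovine blastocysts. Levels are in TPM, a unit of transcript abundance that is corrected for transcript length and has the same total in each library, so that levels of different genes can be set side by side. A median above 0.1 TPM over the 9 libraries was reached by 14599 genes, and these were tested. Of the 10 imprinted growth genes, 9 were tested and *PEG10* was below that level.

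The study asked what the transcription factor TEAD4, which mouse embryos need to form trophectoderm (TE), does in bovine embryos. Libraries were made from 5 wild type (WT) and 4 *TEAD4* KO blastocysts on day 8 after fertilization (D8), with 1 blastocyst per library and the inner cell mass and TE together. All embryos came from oocytes matured in vitro, injected with *Cas9* mRNA, fertilized in vitro with sperm of a single bull and cultured in synthetic oviduct fluid with fetal calf serum. WT embryos had received *Cas9* mRNA without a guide, and KO embryos *Cas9* mRNA with a guide RNA against *TEAD4*. A KO embryo carried no allele other than those with frame-disrupting indels, which arose at random, so that KO embryos did not share a defined allele. WT libraries carry the names WT_1 to WT_5 and *TEAD4* KO libraries the names TE_1 to TE_4. Within a genotype, single libraries could not be matched to single deposited samples, and no batch is given. The table holds no read counts, so the number of reads behind a value cannot be given, and small values can rest on few reads.

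Imprinted genes are expressed mainly from the allele of 1 parent, as set by DNA methylation laid down in the egg or the sperm. Many paternally expressed genes promote growth of the fetus and placenta, and many maternally expressed genes restrain it, with IGF2 and the receptor that clears it as the best known pair. In ruminants, changed expression of imprinted genes is known from overgrown fetuses after embryo culture. In mice *IGF2*, *PEG3*, *PEG10*, *MEST*, *PLAGL1* and *SNRPN* are expressed from the paternal allele, and *IGF2R*, *CDKN1C*, *PHLDA2* and, in most tissues, *GRB10* from the maternal allele. The table holds total levels, so the parental origin of the transcripts was not measured.

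The targeted gene was looked at before the others. *TEAD4* measured 18.0, 52.5, 54.3, 36.5 and 43.4 TPM across WT_1 to WT_5, and TE_1 to TE_4 had 42.8, 41.8, 12.5 and 22.2 TPM. The ranges overlapped, with 3 of the 4 KO libraries inside the WT range and TE_3 below it (log2 fold change −0.51, standard error (SE) 0.42, adjusted p = 0.947 from limma). This difference became −0.77 when WT_1 was left out and −0.16 when TE_3 was. TPM do not show whether a transcript carries an indel, so this gene's level is no check of the genotype.

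The most abundant marker of each cell type of a blastocyst was present in every library. The epiblast gene *NANOG* and the hypoblast gene *PDGFRA* were near 0 in WT_1, at 0.127 and 0.0277 TPM. The TE keratin gene *KRT8*, the most abundant of 7 TE markers, was between 2721 and 11972 TPM, and the pluripotency gene *POU5F1*, the most abundant of 3 epiblast markers, between 773 and 2142 TPM. The paper states that *POU5F1* and *CDX2* do not exclude each other in bovine embryos as in mice, so *POU5F1* does not mark the epiblast alone. The extracellular matrix gene *FN1* was the most abundant of 6 hypoblast markers, at 34.3 to 204.5 TPM. The mean log2 level was lower in KO for 5 of the 7 TE markers (3 without TE_4 and 7 without TE_2), 2 of the 3 epiblast markers (1 without TE_3) and 4 of the 6 hypoblast markers (6 without WT_1, and 3 without TE_1 and TE_3), but higher for *POU5F1* and, except without WT_1, *FN1*, and none of these genes was called by limma. In the hypoblast gene *GATA4*, named after its values were seen, all KO embryos were below all WT embryos, as in 1.23% of all genes tested (log2 fold change −0.59, adjusted p = 0.684 from limma). Before injection, the oocytes had been denuded of cumulus cells by vortexing in hyaluronidase. Among markers of cells that could be carried over, *PTPRC*, *HBB* and the fibroblast gene *COL3A1* were listed at 0 in all 9 libraries. The most abundant of the blood markers was *HBA*, at 54.1 to 314 TPM, and that of the fibroblast markers *COL1A2*, at 3.03 to 28.3 TPM. The steroidogenic gene *CYP11A1* was the most abundant of 9 cumulus and granulosa markers, at 52.7 to 247 TPM in WT, while TE_1 to TE_4 had 26.7, 7.22, 96.7 and 4.57 TPM. Of these 9 markers 5 were above the filter, 1 (*AMH*) with a higher and 4 with a lower mean log2 level in KO. Below the filter were *PTX3*, *HAS2*, *INHBA* and *GREM1*, which reached at most 0.370, 0.520, 0.386 and 0.118 TPM in any library. The summed TPM of all 9 markers were 266, 128, 75.7, 138 and 171 in WT_1 to WT_5, against 57.1, 35.4, 125 and 8.16 over TE_1 to TE_4. *CYP11A1* made up most of the sum in each WT library. Whether its transcripts came from carried-over cells or from the embryo was not tested. *FSHR* was at 12.1 to 26.8 TPM in WT, and TE_1 to TE_4 had 23.3, 21.8, 21.8 and 1.36 TPM.

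Some libraries stood apart. Of the variance of log2(TPM + 1) over the genes tested, 23.6% lay on a principal component with TE_1 (−46.5) and TE_3 (−45.4) at its low end, TE_2 (56.2) and TE_4 (52.1) at its high end, and the WT libraries between −9.95 and 3.35. The next component, with 19.4% of the variance, had WT_1 (55.0) and WT_4 (−42.9) at its ends. WT_1 also held the oocyte transcripts *MOS* (11.5 TPM), *H1-8* (4.11 TPM) and *BMP15* (1.42 TPM), which were at most 0.918, 0.313 and 0 TPM in the other libraries. *NANOG* was at 0.127 TPM in WT_1 and at 2.70 TPM or above in each of the others, and *PDGFRA* at 0.0277 against 2.44 TPM or above. The epiblast gene *SOX2* was at 3.89 TPM in WT_1 and 19.5 to 90.4 TPM in the other WT libraries, but lower still in TE_3 (2.26 TPM). The hypoblast genes *GATA6* (77.6 TPM) and *GATA4* (1.43 TPM) in WT_1 were inside the range of the other libraries. The most abundant of the 8 oocyte markers, of which 3 were above the filter, was *ZP3*, at 5.43 TPM in WT_1 and between 3.14 and 18.4 TPM in the other libraries. *GDF9* was alike in WT_1 (1.38 TPM) and TE_1 (1.41 TPM), *ZP2* was highest in TE_2 (0.567 TPM), *NLRP5* was at 0.0182 TPM in WT_1 and at most 0.135 TPM elsewhere, and *ZP4* was highest in WT_1 (0.413 TPM). The oocyte markers thus did not agree on WT_1. Their summed TPM were 24.6 in WT_1 and 3.40 to 18.6 elsewhere. These oocyte, epiblast and hypoblast genes were singled out after their values were seen. Fits of the imprinted growth genes with each library left out in turn, WT_1 among them, had been planned. Fits without either pair of KO libraries were added after these values were seen.

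The 10 genes spanned more than 3 orders of magnitude in mean level. The order of mean TPM over the 9 libraries was *SNRPN* (131), *GRB10* (16.6), *MEST* (14.5), *PHLDA2* (8.93), *CDKN1C* (6.0), *IGF2R* (3.17), *PEG3* (0.690), *PLAGL1* (0.341), *IGF2* (0.178) and *PEG10* (0.0598). The ranges of neighbours in this order were apart in just 2 places, between *SNRPN* and *GRB10* and between *IGF2R* and *PEG3*, where the higher gene was above the lower in 9 of 9 libraries. Of the genes between, *GRB10* was above *CDKN1C* and *IGF2R* in 9 of 9 libraries, above *PHLDA2* in 7 and above *MEST* in 6, while *MEST* was above *PHLDA2* in 4 of 9 and *PHLDA2* above *CDKN1C* in 5 of 9. *SNRPN* alone made up 57.9% to 85.0% of the summed TPM of the 10 genes in a library. A lower mean TPM than that of *SNRPN* was found for 91.2% of the genes tested, against 65.3% for *GRB10* and 1.59% for *IGF2*.

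**Figure D1:**
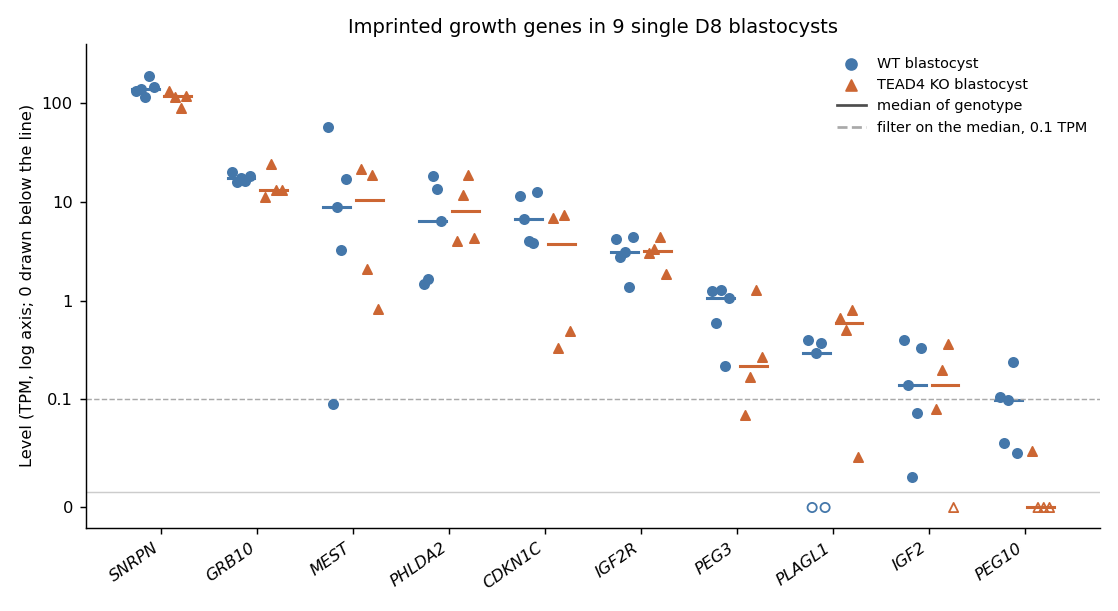
Level of each imprinted growth gene in TPM (log axis, values of 0 drawn below the grey line) in 5 WT (circles) and 4 *TEAD4* KO blastocysts (triangles), with the median of each genotype as a bar and the filter of 0.1 TPM as a dashed line. The genes are ordered by mean level, from *SNRPN* at 131 TPM to *PEG10* at 0.0598 TPM, and WT and KO embryos overlap in all 10.

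None of the 9 genes tested was called changed between *TEAD4* KO and WT blastocysts by limma (adjusted p under 0.05 with a difference above 1 log2 unit in either direction). Over all genes tested, 3 were called, or 0.0205%. An unadjusted p under 0.05 was found for 0 of the 9 genes, against 861 of the 14599 genes tested, or 5.90%. It was found for *CDKN1C* with array weights (beside 1151 of all genes), for *CDKN1C* without TE_1 (980), for *PEG3* and *CDKN1C* without TE_3 (1077), for *PLAGL1* without TE_4 (893), and for *CDKN1C* without TE_1 and TE_3 (1957) and *PLAGL1* without TE_2 and TE_4 (2283). In 0 of the 9 did all KO embryos lie above all WT embryos, or all below them, against 0.801% and 1.23% of all genes tested. With 9 genes these backgrounds leave less than 1 gene to be counted, so the counts of 0 do not set the list apart from other genes. The mean log2 level was higher in KO blastocysts for 3 of the 9 genes and lower for 6 (5 and 4 without WT_1 or without TE_4), with a median log2 fold change of −0.23 (0.024 without WT_1 and 0.032 without TE_4), beside −0.05 over all genes tested. The 95% interval of each of the 9 log2 fold changes included 0, and for *MEST*, *CDKN1C* and *PHLDA2* it reached past a 2-fold difference, so that changes of that size were not excluded. Log2 fold changes are KO minus WT of log2(TPM + 1), which understates differences of genes near or below 1 TPM. With a pseudocount of 0.1 TPM they were −1.15 for *PEG3* (SE 0.69), 0.96 for *PLAGL1* (SE 0.77), −0.18 for *IGF2* (SE 0.64), −1.86 for *CDKN1C* (SE 0.87) and −0.073 for *MEST* (SE 1.47), and the 95% intervals of all members tested but *GRB10* and *SNRPN* reached past a 2-fold difference, with 0 inside all 9.

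**Figure D2:**
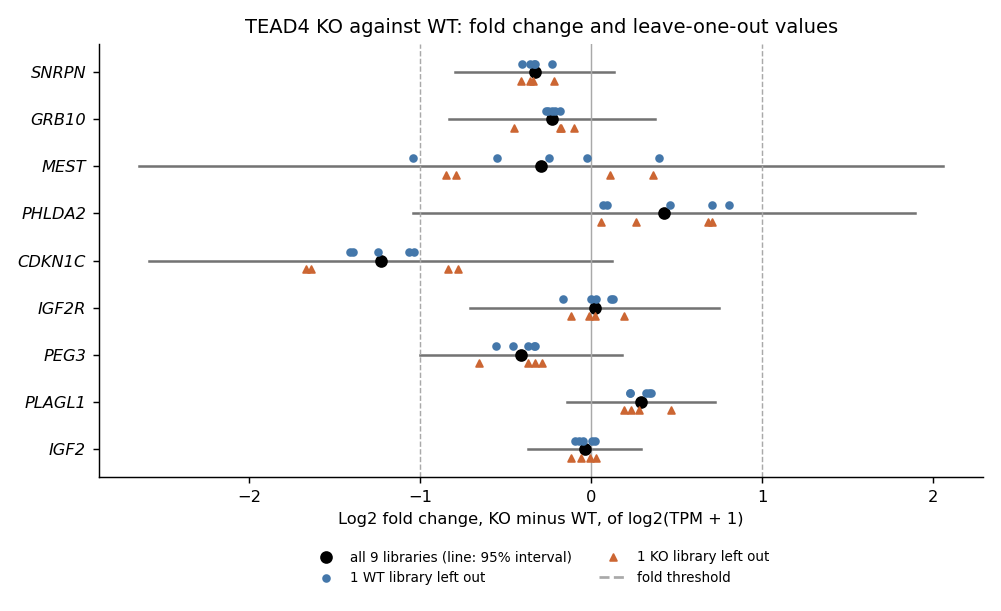
Log2 fold change of the 9 genes tested, KO minus WT, of log2(TPM + 1) (black, with its 95% interval), and the value with 1 WT library (circles) or 1 KO library (triangles) left out; dashed lines mark the fold threshold. All 9 intervals cross 0, and the leave-one-out values of *MEST*, *IGF2R* and *IGF2* lie on both sides of it.

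*IGF2*, the growth factor of the group, was close to the limit of what was tested. It measured 0.397, 0.141, 0.0164, 0.0725 and 0.331 TPM across WT_1 to WT_5, and TE_1 to TE_4 had 0.0793, 0.200, 0.365 and 0 TPM. Values of both genotypes ran through the same range, and TE_4 alone was listed at 0. The log2 fold change was −0.04 (SE 0.15, adjusted p = 0.992 from limma), and its sign turned with WT_1 (0.024), WT_5 (0.0061) or TE_4 (0.032) left out.

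*IGF2R*, the receptor that carries IGF2 to the lysosome and so limits its supply, was at 4.20, 2.77, 3.08, 1.39 and 4.41 TPM in WT_1 to WT_5. TE_1 to TE_4 had 3.04, 3.38, 4.43 and 1.86 TPM. The lowest values of the genotypes, in WT_4 and TE_4, and the highest, in WT_5 and TE_3, were alike, and WT embryos averaged 3.17 ± 1.22 TPM (SD, n = 5) and KO embryos 3.18 ± 1.06 TPM (SD, n = 4). The log2 fold change was 0.02 (SE 0.33, adjusted p = 0.997 from limma), with a 95% interval from −0.71 to 0.75. It was negative without WT_2 (−0.00024), WT_4 (−0.16), TE_2 (−0.013) or TE_3 (−0.12). The level of *IGF2R* was thus above that of its ligand's transcript in every library.

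*GRB10* encodes an adaptor that binds the insulin and IGF1 receptors and dampens their signal. It measured 20.0, 15.8, 17.5, 16.2 and 18.2 TPM across WT_1 to WT_5, and TE_1 to TE_4 had 11.2, 24.1, 13.3 and 13.3 TPM. The WT embryos lay close together, and no KO embryo fell within their range: TE_1, TE_3 and TE_4 were below it and TE_2 above it. The SD of log2(TPM + 1) was 0.13 in WT and 0.46 in KO, a difference that was not tested. In limma *GRB10* had a log2 fold change of −0.23 (SE 0.28, adjusted p = 0.977 from limma; exact permutation test, two-sided, p = 0.333). Without TE_2, all KO embryos were below all WT embryos, with a log2 fold change of −0.45, and 5.66% of all genes tested were without overlap in the same libraries. It was −0.10 without TE_1, and 0.036 with TE_1 and TE_3 both left out.

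*CDKN1C*, an inhibitor of cyclin-dependent kinases that slows cell division, had the largest log2 fold change of the 9 genes. It measured 11.6, 6.68, 4.05, 3.85 and 12.6 TPM across WT_1 to WT_5, and TE_1 to TE_4 had 6.93, 0.331, 7.46 and 0.498 TPM. TE_1 and TE_3 lay inside the WT range, while TE_2 and TE_4 were below its lowest value. KO minus WT, the difference was −1.23 log2 units (SE 0.62, 95% interval −2.58 to 0.12, adjusted p = 0.859 from limma; exact permutation test, two-sided, p = 0.206). It was −0.78 without TE_2, −0.84 without TE_4 and 0.039 without both, and −2.50 with TE_1 and TE_3 left out (adjusted p = 0.115 from limma, the smallest of any alternative for the 9 genes, beside up to 0.999 in others of *CDKN1C*). The same split of KO embryos is that of the principal component above. *CYP11A1* was also lower in TE_2 and TE_4 than in TE_1 and TE_3, as was *STAR* (3.98 and 1.62 against 6.60 and 5.87 TPM). Other cumulus and granulosa markers tested did not follow this split. *FSHR* was at 21.8 TPM in both TE_2 and TE_3, *AMH* was highest in TE_2 (2.27 TPM), and *TNFAIP6* was listed at 0 in TE_1, TE_2 and TE_3. The part of these differences between libraries in the *CDKN1C* result was not tested. In whole blastocysts, fewer cells of a type and less RNA per cell cannot be told apart.

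*PHLDA2*, which encodes a pleckstrin homology domain protein that restrains placental growth, was at 1.48, 1.66, 18.3, 13.7 and 6.39 TPM in WT_1 to WT_5. TE_1 to TE_4 had 4.05, 11.8, 18.6 and 4.33 TPM. WT_1 and WT_2 had the lowest levels of all 9 libraries, and WT_3 and TE_3 the highest. The log2 fold change was 0.43 (SE 0.67, 95% interval −1.04 to 1.90, adjusted p = 0.982 from limma), and it was 0.057 without TE_3, 0.068 without WT_1, 0.094 without WT_2 and 0.26 without TE_2, and between 0.68 and 0.81 without WT_3, WT_4, TE_1 or TE_4.

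*PLAGL1* and *PEG3* encode zinc finger transcription factors. *PLAGL1* measured 0.396, 0, 0.296, 0.368 and 0 TPM across WT_1 to WT_5, and TE_1 to TE_4 had 0.672, 0.508, 0.803 and 0.0260 TPM. TE_1, TE_2 and TE_3 were above every WT embryo, TE_4 was among the lowest, and WT_2 and WT_5 were listed at 0. Its log2 fold change in limma was 0.29 (SE 0.20, adjusted p = 0.920 from limma; exact permutation test, two-sided, p = 0.175). It was 0.20 without TE_3. Without TE_4 it was 0.47 and the genotypes did not overlap, as in 4.09% of all genes tested.

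*PEG3* measured 1.26, 0.600, 1.28, 0.219 and 1.05 TPM across WT_1 to WT_5, and TE_1 to TE_4 had 0.0685, 0.168, 1.29 and 0.269 TPM. TE_3 had the highest level of the 9 libraries, while TE_1 and TE_2 were below WT_4, the lowest WT embryo, and TE_4 was just above it. For *PEG3* the log2 fold change was −0.41 (SE 0.27, adjusted p = 0.920 from limma; exact permutation test, two-sided, p = 0.222), and −0.65 without TE_3.

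*MEST*, which encodes a protein with an alpha/beta hydrolase fold and is known for effects on fetal growth, varied most. It measured 57.8, 0.0889, 8.87, 3.26 and 17.1 TPM across WT_1 to WT_5, and TE_1 to TE_4 had 21.6, 2.07, 18.8 and 0.821 TPM. The highest WT embryo was 649-fold above the lowest, and all 4 KO embryos lay between them, TE_1 and TE_3 high and TE_2 and TE_4 low. Between genotypes *MEST* had a log2 fold change of −0.29 (SE 1.08, 95% interval −2.64 to 2.06, adjusted p = 0.992 from limma). Its sign turned when WT_1 was left out (0.40), and also without TE_2 (0.11), without TE_4 (0.36) or without both (1.29), while it was −1.04 without WT_2.

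*PEG10*, a gene derived from a retrotransposon and needed for the mouse placenta, was the lowest of the 10. WT_1 to WT_5 had 0.106, 0.0358, 0.0979, 0.239 and 0.0288 TPM. It was at 0.0300 TPM in TE_1, and was listed at 0 in TE_2, TE_3 and TE_4. All 5 WT libraries and 1 of 4 KO libraries were thus above 0, and TE_1 lay within the WT range. An exact permutation test on log2(TPM + 1), unadjusted for the 10 genes, gave p = 0.0317 (two-sided), and limma without the filter on low values gave a log2 fold change of −0.13 (SE 0.06, adjusted p = 0.901). At such levels, and without read counts, a value of 0 cannot be told apart from a low one.

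*SNRPN*, which encodes a protein of the spliceosome, was the most abundant of the 10. It measured 134, 141, 116, 189 and 145 TPM across WT_1 to WT_5, and TE_1 to TE_4 had 134, 116, 89.6 and 120.0 TPM. The highest 3 libraries were WT embryos, and TE_3 was the lowest. WT embryos averaged 145 ± 27.1 TPM (SD, n = 5) and KO embryos 115 ± 18.5 TPM (SD, n = 4), or −0.33 on the log2 scale (SE 0.21, 95% interval −0.80 to 0.14, adjusted p = 0.917 from limma). The exact permutation test gave p = 0.0952 (two-sided), the smallest of the 9 genes tested. The log2 fold change was negative in each leave-one-out fit, from −0.41 without TE_1 to −0.22 without TE_3.

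**Figure D3:**
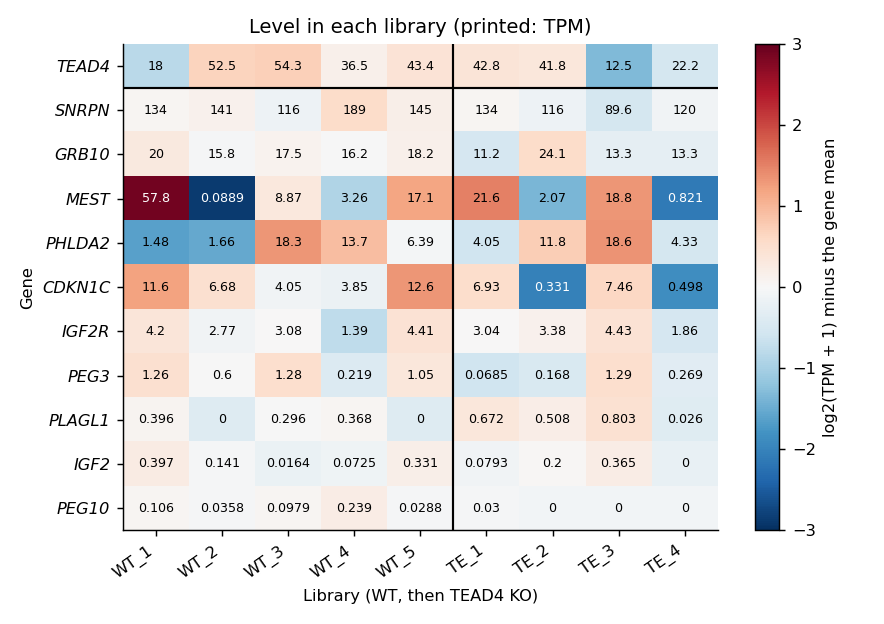
Level of *TEAD4* and of the 10 imprinted growth genes in each library, with the TPM printed in each field and the colour giving log2(TPM + 1) minus the mean of the gene over the 9 libraries. *CDKN1C* is low in TE_2 (0.331 TPM) and TE_4 (0.498 TPM) and *MEST* ranges from 0.0889 TPM in WT_2 to 57.8 TPM in WT_1.

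The genes differed in how far embryos of 1 genotype lay apart. The pooled SD of log2(TPM + 1) within genotypes was 2.04 for *MEST*, 1.21 for *PHLDA2* and 1.10 for *CDKN1C*, against a median of 0.47 over all genes tested. These 3 were the members above that median, and 99.7%, 97.1% and 95.6% of the genes tested had a smaller SD. Among genes within 0.5 log2 units of the same mean level, 99.1% of 1947 had a smaller SD than *MEST*, 94.8% of 1933 than *PHLDA2*, 91.7% of 1984 than *CDKN1C* and 64.0% of 3654 than *PEG3*, the 4 members above the median of their peers. *SNRPN* (0.25) and *GRB10* (0.32) lay in the lower part of the genes of like level, of which 14.8% and 11.5% had a smaller SD. For *IGF2*, *PEG3* and *PLAGL1* the SD was held down by the pseudocount of 1 TPM, and rose from 0.20, 0.44 and 0.30 to 0.91, 1.09 and 1.25 with a pseudocount of 0.1 TPM.

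**Figure D4:**
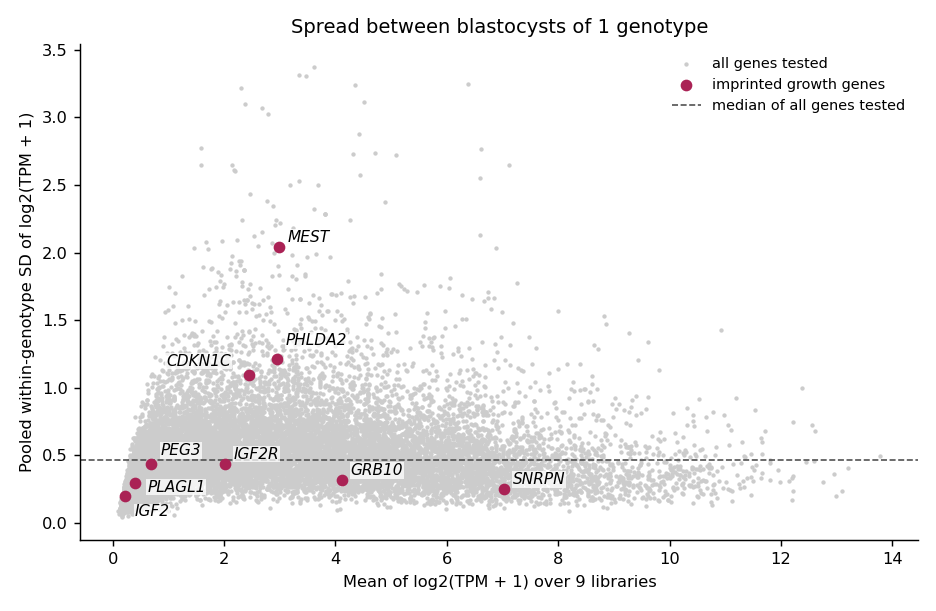
Pooled within-genotype SD of log2(TPM + 1) against the mean of log2(TPM + 1) over 9 libraries, for all 14599 genes tested (grey) and the 9 imprinted growth genes tested (red); the dashed line is the median SD, 0.47. *MEST*, *PHLDA2* and *CDKN1C* lie above that line and the other 6 below it.

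The summed TPM of the 10 genes were 231, 169, 169, 228 and 205 in WT_1 to WT_5 and 181, 158, 155 and 141 in TE_1 to TE_4. WT embryos averaged 200.5 ± 30.4 (SD, n = 5) and KO embryos 159 ± 16.8 (SD, n = 4). TE_1 was above WT_2 and WT_3, and the other KO libraries were below all WT libraries. The exact permutation test on the log2 of this sum gave p = 0.0635 (two-sided). *SNRPN* made up most of the sum, and without it the sums were 97.3, 27.8, 53.6, 39.3 and 60.1 in WT_1 to WT_5 and 47.6, 42.6, 65.1 and 21.1 in TE_1 to TE_4. Split by the parental allele known from mice, 1 of the 5 paternally expressed genes tested and 2 of the 4 maternally expressed genes had a higher mean log2 level in KO, with median log2 fold changes of −0.29 and −0.10. With single libraries left out these were −0.33 to 0.032 and −0.23 to 0.0064, and without WT_1 or without TE_4, 3 of the 5 paternally expressed genes were higher, with medians of 0.024 and 0.032.

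Imprinted genes lie in clusters, and neighbours of the 10 genes were looked up by their order in the RefSeq annotation of ARS-UCD2.0. *SNRPN* lies near *NDN*, which encodes a growth-restraining protein of the MAGE family, with 1 protein-coding gene between them. *NDN* measured 24.2, 33.0, 28.5, 25.9 and 36.9 TPM across WT_1 to WT_5, and TE_1 to TE_4 had 39.7, 69.8, 39.1 and 77.2 TPM. All KO embryos were above all WT embryos, as in 0.801% of all genes tested. The log2 fold change of *NDN* was 0.85 (SE 0.28, 95% interval 0.25 to 1.46). It did not pass the threshold (adjusted p = 0.643 from limma, and exact permutation test, two-sided, p = 0.0159, the smallest it can give). *MKRN3* of the same cluster, named after its values were seen, had a log2 fold change of 0.78 (adjusted p = 0.785 from limma), *UBE3A* one of −0.14, and *MAGEL2* was listed at 0 in all 9 libraries.

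*CDKN1C* and *PHLDA2* lie in a cluster that runs from *OSBPL5* and *NAP1L4* through *PHLDA2*, *SLC22A18*, *CDKN1C*, *KCNQ1*, *TSSC4*, *CD81* and *ASCL2* toward *IGF2*. *ASCL2*, a transcription factor gene of TE and placenta, measured 4.78, 6.85, 2.62, 0.366 and 17.7 TPM across WT_1 to WT_5, and TE_1 to TE_4 had 2.09, 0.839, 3.40 and 0 TPM. Its ranges overlapped, with TE_4 below every WT embryo (log2 fold change −1.25, SE 0.67, adjusted p = 0.891 from limma; −0.79 without WT_5, −1.73 without WT_4 and −2.14 with array weights). *TSSC4* had a log2 fold change of 0.48, *OSBPL5* one of 0.38, *CD81* one of −0.32 (0.060 without TE_1) and *NAP1L4* one of 0.06, while *KCNQ1* and *SLC22A18* were at 0 to 0.0492 and 0 to 0.404 TPM. The cluster thus held genes with a higher and genes with a lower mean in KO.

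*PEG10* lies between *SGCE* and *PPP1R9A*, which were at 0.0191 to 0.395 and 0.121 to 0.969 TPM, so both genes beside it were below 1 TPM in every library. Further away, *TFPI2* and *DLX5* reached 2.03 and 2.44 TPM. *MEST* overlaps *COPG2* in the annotation, and *COPG2* measured 8.95, 2.51, 4.28, 4.72 and 4.25 TPM across WT_1 to WT_5, and TE_1 to TE_4 had 2.37, 11.9, 3.19 and 5.16 TPM. *COPG2* was high in WT_1, as *MEST* was, but it was highest in TE_2, where *MEST* was low. The spans of *IGF2R* and *AIRN*, *PEG3* and *APEG3*, *PLAGL1* and *ZC2HC1B*, and *SNRPN* and *SNURF* overlap as well. Whether counting used the strand of a read is not given in the sources used here, so reads of such partners may not be told apart.

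Lists of related genes gave the setting for these values, and no gene of any of these lists was called changed by limma. Of 9 other paternally expressed genes tested (14 listed in the table), 4 had a higher and 5 a lower mean log2 level in KO. Their median log2 fold change was −0.07 (from −0.13 without WT_3 to 0.041 without TE_4, 0.034 without TE_1 and 0.0025 after quantile normalization). Without TE_1 and TE_3 this median was 0.056 (6 higher, 4 lower). *NDN* was the only gene of the list without overlap, beside 2.03% of all genes tested. *NNAT*, the most negative of the list, averaged 16.7 ± 7.99 TPM in WT (SD, n = 5) and 9.39 ± 10.7 TPM in KO (SD, n = 4), or −1.13 as log2 fold change (adjusted p = 0.842 from limma). Without TE_3 the log2 fold change of *NNAT* was −1.73, and its KO embryos were then all below the WT embryos, where 5.04% of all genes tested had no overlap. Of 13 other maternally expressed genes tested (17 in the table), 8 were higher and 5 lower, with a median of 0.05 (from −0.14 without TE_2 to 0.13 without TE_1, and −0.042 without WT_2). *DLX5* had a log2 fold change of −0.75 (adjusted p = 0.764 from limma). An unadjusted p under 0.05 was found for *NDN* and *MKRN3* in the paternal list and for *DLX5* and, named after its values were seen, *TP73* in the maternal list, against 5.90% of all genes tested.

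The IGF pathway was represented by 17 further genes, of which 13 were tested, 5 with a higher and 8 with a lower mean log2 level in KO. Their median log2 fold change was −0.15 (from −0.24 without TE_2 to −0.077 without WT_3, and 0.014 without the filter on low values). It was −0.30 with a pseudocount of 0.1 TPM. With TE_1 and TE_3 left out it turned to 0.032 (7 higher, 6 lower). With TE_2 and TE_4 left out it was −0.24 (0 higher, 13 lower). *IGFBP3*, a carrier protein that binds IGFs, measured 25.1, 22.1, 62.9, 29.6 and 26.5 TPM across WT_1 to WT_5, and TE_1 to TE_4 had 10.2, 6.23, 14.5 and 29.0 TPM. TE_1, TE_2 and TE_3 were below every WT embryo and TE_4 was within the WT range, with a log2 fold change of −1.19 (SE 0.43, adjusted p = 0.718 from limma; exact permutation test, two-sided, p = 0.0635). It was the only gene of the 13 with an unadjusted limma p under 0.05, against 5.90% of all genes tested. The carrier *IGFBP6* had a log2 fold change of −0.80 (adjusted p = 0.943 from limma), which was −1.35 without WT_2, −1.27 without TE_3 and −0.52 without TE_2. *IGF2BP1*, which encodes an RNA-binding protein with *IGF2* mRNA among its targets, was the most abundant, at 144 ± 19.8 TPM in WT (SD, n = 5) and 143 ± 48.3 TPM in KO (SD, n = 4). Its log2 fold change was −0.06, and 0.0013 with median-of-ratios scaling. The ligand *IGF1* was listed at 0 in 8 libraries and at 0.0482 TPM in TE_4, while its receptor *IGF1R* was at 0.438 to 1.50 TPM.

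Of 9 relatives that are not imprinted, 6 had a higher and 3 a lower mean log2 level in KO, with a median log2 fold change of 0.02 (from −0.088 without WT_2 to 0.12 without WT_3, and −0.031 without WT_5). *PHLDA1*, a relative of *PHLDA2*, measured 2.16, 1.53, 2.02, 5.62 and 7.10 TPM across WT_1 to WT_5, and TE_1 to TE_4 had 1.07, 0.243, 0.322 and 0.341 TPM. All KO embryos were below all WT embryos, as in 1.23% of all genes tested. The log2 fold change of −1.52 did not pass the threshold (SE 0.38, adjusted p = 0.415 from limma, and exact permutation test, two-sided, p = 0.0159). *PHLDA3*, another relative, had a log2 fold change of 1.02 (adjusted p = 0.891 from limma), with WT_1 at 902 TPM and the other WT libraries between 127 and 205 TPM. Without WT_1, all KO embryos, at 211 TPM or above, lay above the remaining WT embryos (3.71% of all genes tested had no overlap in the same libraries), and the log2 fold change was 1.52 (adjusted p = 0.412 from limma, the smallest of its alternatives, beside up to 0.999 in others). *SNRPB*, the close relative of *SNRPN*, averaged 669 ± 37.4 TPM in WT (SD, n = 5) and 759 ± 228 TPM in KO (SD, n = 4), above *SNRPN* in each library. The sequences of *SNRPN* and *SNRPB* are similar, and how the authors' counting divided shared reads between them was not tested.

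All 11 genes of the imprint maintenance list were tested, while the role of each in bovine imprints was not examined. The median log2 fold change was −0.03, with 5 higher and 6 lower in KO. It ran from −0.29 without TE_2 to 0.047 without TE_1, and was also above 0 without WT_4 (0.0097), without TE_3 (0.020), with median-of-ratios scaling (0.024), with quantile normalization (0.039) and with a median above 1 TPM (0.0019). *ZFP57*, a zinc finger protein gene that protects methylated imprints, measured 13.2, 7.42, 6.73, 9.79 and 6.56 TPM across WT_1 to WT_5, and TE_1 to TE_4 had 1.03, 11.8, 3.10 and 12.7 TPM. TE_1 and TE_3 were below every WT embryo and TE_2 and TE_4 inside the WT range, the reverse of the order in *CDKN1C* and *MEST*. *ZFP42*, the most abundant of the list, was at 162 and 153 TPM in TE_1 and TE_3 and at 883 and 718 TPM in TE_2 and TE_4, around a WT range of 324 to 509.8 TPM. The methylase gene *DNMT1* was at 0.723, 3.57, 1.57 and 5.79 TPM in TE_1 to TE_4 and at 1.23 to 2.42 TPM in WT. The adjusted p-values of these 3 genes were 0.956, 0.982 and 0.956 from limma. The summed TPM of the 11 genes were 518, 1335, 444 and 1237 in TE_1 to TE_4 and 695 to 907 in WT. *ZFP42* carried most of this split, as the sums without it were 355, 452, 292 and 519 in TE_1 to TE_4 and 264 to 494 in WT.

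Housekeeping genes were above 0 in every library. Of the 15 tested, 5 were higher and 10 lower in KO, with a median log2 fold change of −0.10 (from −0.17 without TE_2 to −0.0053 without TE_1). This median turned to 0.17 without TE_1 and TE_3 (11 higher, 4 lower). It was −0.35 without TE_2 and TE_4 (1 higher, 14 lower). *PGK1* and *GAPDH*, enzymes of glycolysis, had log2 fold changes of −0.72 and −0.69 (adjusted p = 0.812 and 0.827 from limma) and were the 2 of the list with an unadjusted p under 0.05. The log2 fold change of *PGK1* was −0.47 without TE_1. The most abundant gene, *PPIA*, had one of −0.19 (−0.10 without WT_4 and 0.0048 after quantile normalization). The median log2 fold change of the imprinted growth genes, −0.23, was below those of the 6 related lists, next to that of the IGF pathway genes, −0.15. This order did not hold with a pseudocount of 0.1 TPM (−0.18 against −0.30 in the IGF pathway), or without WT_1 (0.024), WT_5 (−0.026), TE_1 (−0.1005 against −0.1012), TE_2 (−0.056), TE_4 (0.032) or both TE_2 and TE_4 (0.039).

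**Figure D5:**
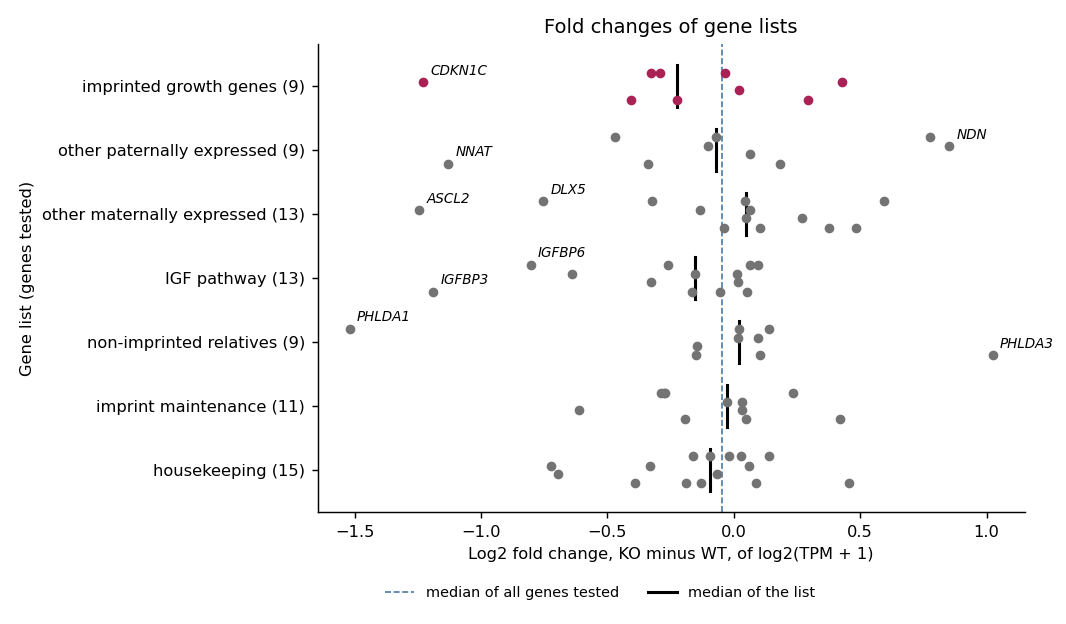
Log2 fold change, KO minus WT, of log2(TPM + 1) for each gene tested in the imprinted growth genes (red) and 6 further lists (grey), with the median of each list as a black bar and the median of all genes tested, −0.05, as a dashed line. The medians lie between −0.23 for the imprinted growth genes and 0.05 for the other maternally expressed genes.

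For the most abundant members, the 3 genes with the most similar profile were looked up by Pearson's r of log2(TPM + 1) over the 9 libraries among 13168 genes with a symbol. For *SNRPN* these were *PAQR5* (r = 0.888), *C14H8orf34* (r = 0.871) and *ZNF572* (r = 0.868), each with its highest level in WT_4 and its lowest in TE_3, as *SNRPN* has. For *GRB10* they were *LIG4* (r = 0.971), *ZNF518A* (r = 0.957) and *MTFR2* (r = 0.957), which share its highest value in TE_2 and its lowest in TE_1. For *MEST* they were *FBXO11* (r = 0.923), *ALDH5A1* (r = 0.903) and *PRAG1* (r = 0.894), each highest in WT_1. These r values are the highest of many compared, over libraries of which some stand apart, and are given as a description.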

How the data were processed

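TPM of 21512 genes in 9 libraries of single D8 blastocysts were computed by the authors and used as deposited, with FastQC, fastp and kallisto named in the submitters' processing notes (versions not given). Which annotation was used, and how transcripts were joined into genes, is not given in the sources used here. The labels describe a stranded mRNA kit and the methods of the paper SMART-Seq v4 PLUS cDNA, so the library kit and its strandedness are unclear. The table holds no read counts, and the depth of single libraries is not used here. All value columns were used (0 unused), and columns were assigned to 5 WT and 4 KO embryos by their names.

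Genes with a median above 0.1 TPM were tested on log2(TPM + 1) with limma 3.58.1 in R 4.3.3 (lmFit, eBayes with trend) and Benjamini-Hochberg adjustment over the 14599 genes tested. A gene was called when its adjusted p was under 0.05 and its log2 fold change beyond 1 in either direction. For single genes, the exact permutation test (two-sided) ran through the 126 ways to divide the libraries into 5 and 4, with 0.0159 as its smallest p. Each library is a separate embryo, and p-values set the difference in means against the spread between these embryos. As no batch is given, the embryos were taken as independent. The steps were tested on simulated data, and run with Python 3.11.15, numpy 2.4.6, pandas 2.3.3 and matplotlib 3.10.9.

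The imprinted growth genes and the lists were chosen with earlier results of these data known. Named were the 10 genes, *TEAD4*, in each related list the 2 tested genes with the largest absolute log2 fold change, the most abundant gene and every gene without overlap, the most abundant gene of each marker list, and the 3 genes with the most similar profile for each of the 3 most abundant members. Other named genes were chosen after their values were seen or for their place beside a member. Gene order came from RefSeq's ARS-UCD2.0 annotation, where 10 of 10 members matched by symbol. Coordinates are left out, as the build behind the table is not given in the sources used here. *USP29*, *SNURF*, *AIRN*, *KCNQ1OT1*, *H19*, *MEG3*, *MEG8* and *MEG9* were not found by symbol among the 21512 genes, so they are not analysed here.

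The alternatives changed the pseudocount (0.1 TPM) or the filter (none, or a median above 1 TPM), or used median-of-ratios scaling, quantile normalization, limma without trend, robust eBayes or array weights. Each library was also left out in turn. Leaving out TE_1 with TE_3, or TE_2 with TE_4, was added after seeing the data.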

Additional observations from a re-analysis of the deposited data

Results flagged for a closer look

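In 5 of 56 groups (a gene in the libraries of 1 genotype), the highest or lowest library lay far from the nearest of the others, as the gap between them divided by the range of the group on the log2(TPM + 1) scale was above Dixon's 95% critical value. In *PEG10*, at 0.0300 TPM in TE_1, the other 3 KO libraries were listed at 0, so that the gap is the whole range whatever the value, and this group says nothing of TE_1. Of the other 55 groups, 4 remain, and chance gives this in about 1 in 20 groups of values with a normal spread. Many of these genes were named for a large difference between genotypes, so that this rate may not hold for them. *IGFBP3* was at 62.9 TPM in WT_3, with the next WT library at 29.6 TPM. *IGFBP6* was at 3.23 TPM in WT_2, with the next at 19.5 TPM. *PHLDA1* was at 1.07 TPM in TE_1, with the next KO library at 0.341 TPM. *PHLDA3* was at 902 TPM in WT_1, with the next WT library at 205 TPM.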

How the results depend on the processing

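In 168 alternative values of the 9 imprinted growth genes tested, none was called changed by limma (smallest adjusted p 0.115), and the log2 fold change turned sign in 17, of *IGF2* (5), *IGF2R* (6), *MEST* (4), *CDKN1C* (1) and *GRB10* (1). *PEG3*, *PLAGL1*, *PHLDA2* and *SNRPN* kept their sign in all alternatives that could be run for them. With a median above 1 TPM, *IGF2*, *PEG3* and *PLAGL1* were not tested. None of these turns passed the threshold, and their cause was not tested.

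Turned values were 0.010 for *IGF2* and 0.0048 for *PPIA* with quantile normalization, 0.0013 for *IGF2BP1* with median-of-ratios scaling and −0.17 for *IGF2R* with array weights. With TE_1 and TE_3 left out they were −0.18 for *IGF2R*, 0.036 for *GRB10*, 0.039 for *CD81*, 0.34 for *IGF2BP1*, 0.49 for *ZFP57* and 0.89 for *ZFP42*. With TE_2 and TE_4 left out they were 0.037 for *IGF2*, 1.29 for *MEST*, 0.039 for *CDKN1C*, −0.025 for *SNRPB* and −0.28 for *DNMT1*. Leaving out single libraries gave −0.12 to 0.032 for *IGF2*, −0.16 to 0.19 for *IGF2R*, −1.04 to 0.40 for *MEST*, −0.68 to 0.060 for *CD81*, −0.24 to 0.14 for *IGF2BP1*, −0.71 to 0.13 for *ZFP42* and −0.050 to 0.24 for *SNRPB*.

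The 3 genes called among all genes became 8 with a pseudocount of 0.1 TPM, 8 with a median above 1 TPM, 5 with median-of-ratios scaling, 6 with quantile normalization, 5 without trend and 6 with robust limma. They became 21 without TE_1 and TE_3, 0 without TE_2 and TE_4, and 0 to 10 with single libraries left out. The within-genotype SD was 0.91 for *IGF2*, 1.09 for *PEG3* and 1.25 for *PLAGL1* with a pseudocount of 0.1 TPM.

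Genes whose genotypes did not overlap grow in number as libraries are left out, since fewer values have to lie apart. Without TE_1 and TE_3 there were 1 imprinted growth gene (*CDKN1C*), 3 other paternally expressed, 4 other maternally expressed, 3 imprint maintenance and 3 housekeeping genes, against 2792 of all 14708 genes tested. Without TE_2 and TE_4 there were 2 imprinted growth genes (*GRB10* and *PLAGL1*), 2 other paternally expressed, 3 other maternally expressed, 1 IGF pathway, 5 imprint maintenance and 4 housekeeping genes, against 3093 of all 14656 (21.1%). With single libraries left out there were 0 to 1 imprinted growth genes, 1 to 2 other paternally expressed genes, 0 to 2 other maternally expressed genes, 0 to 1 IGF pathway genes, 1 to 2 non-imprinted relatives and 0 to 1 housekeeping genes, against 2.36% to 5.66% of all genes tested. The median log2 fold change of the imprint maintenance genes was 0.30 without TE_1 and TE_3 and −0.61 without TE_2 and TE_4, where that of the other maternally expressed genes was −0.28.

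No paired analysis was done, as nothing in the labels ties an embryo of 1 genotype to an embryo of the other. The table holds no read counts, which limits what can be said of *IGF2*, *PLAGL1*, *PEG3* and *PEG10*.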
